A study of Mus musculus with 3 samples.

Results

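The genes described here are 9 parts of the blood-retina barrier: the claudins Cldn1, Cldn2, Cldn5 and Cldn12, the junction proteins Tjp1, Ocln and Cgn, the endothelial lipid transporter Mfsd2a and the vesicle diaphragm protein Plvap. They were taken by name from the deposited expression table, as the probe sets annotated to exactly 1 of these symbols, and all 9 were found among the 22180 genes measured, each with 1 probe set. Expression was measured on 3 Affymetrix whole-transcript arrays, each hybridised with RNA pooled from 5 to 6 retinae of C57 mice after an injection into the vitreous of the eye. The groups were AP, which the labels name as the control without spelling it out, taken 2 hr after injection, cavtratin, a cell-permeable peptide with the scaffolding domain of caveolin-1, also taken 2 hr after injection, and Cav1-shRNA, a hairpin RNA whose name points to the Cav1 mRNA, taken 2 days after injection. The labels used here name no age, dose or vector, and uninjected retina was not analysed here. With 1 array per group there are no replicates, so each difference below compares 2 pooled RNA samples, no test was possible and no p-value is given. Each comparison of Cav1-shRNA, with AP or with cavtratin, sets 2 days against 2 hr, and the agent and the time cannot be told apart.

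The blood-retina barrier has an inner part, the endothelium of the retinal vessels, and an outer part, the retinal pigment epithelium. In both, claudins in the membranes of neighbouring cells join across the gap and decide what leaks between cells, while occludin seals alongside them and the scaffold proteins ZO-1 and cingulin tie the strand to the actin cytoskeleton. Traffic through the endothelial cell is a separate route: Mfsd2a, which imports lysophospholipids that carry omega-3 fatty acids, is known to keep caveolar vesicle transport low, and Plvap forms the diaphragms of fenestrae and vesicles and is scarce in closed barrier vessels. Caveolin-1 is the coat protein of those caveolae.

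Cldn1 was the 1 member with a difference of at least 2-fold, higher in the cavtratin array than in the AP array. Cldn5, the main claudin of barrier endothelium, differed in opposite directions, lower than AP in cavtratin and higher in Cav1-shRNA, by less than 1.5-fold each time. Tjp1, Cldn12, Ocln, Cgn and Plvap had exactly the same deposited value on all 3 arrays. Cldn2 and Mfsd2a were equal in AP and cavtratin and slightly lower in Cav1-shRNA.

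Values are read as log2 expression, where a difference of 1 is 2-fold, and a gene was treated as expressed at or above a floor of 6.50, the median of all probe sets with 1 symbol. Array medians lay between 6.01 and 6.07. The labelled tissue was borne out by 8 measured rod photoreceptor markers, all above the floor, with a mean of 12.0 on each array, and of 17 vascular endothelium markers 11 reached it. Cav1 itself was at 8.26 on all 3 arrays, so the array labelled Cav1-shRNA showed no lower value of the gene its hairpin is named for. Equal values are common in this table. Of 11370 genes whose mean reached the floor, 43.8% were exactly equal on all 3 arrays, and 49.8% to 51.0% of the probe sets with 1 symbol carried a value that another such probe set on the same array also carried. An exact tie is therefore a property of the deposited values and sets no limit on a true difference.

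**Figure D1:**
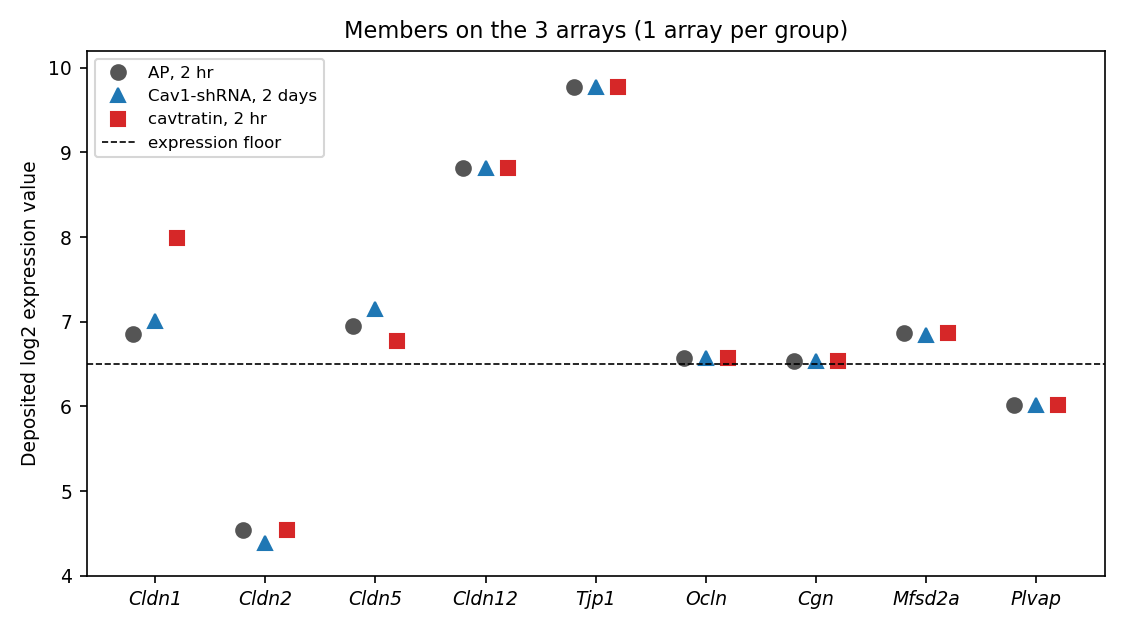
Deposited log2 expression value (vertical axis) of each member on the AP, Cav1-shRNA and cavtratin arrays, 1 point per array, with the expression floor of 6.50 as a dashed line. Cldn1 stands at 7.99 in cavtratin against 6.85 and 7.01, Cldn5 takes 3 different values, and 5 members are level; heights are not comparable between genes.

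Cldn1 and Cldn5 were the members that differed on all 3 arrays, and the 250 bases before their transcription starts are shown because these are the claudins on which the comparisons turn. Both come from RefSeq on GRCm38.p6, which held an upstream sequence for 8 of the 9 members, and both genes lie on mouse chromosome 16. The Cldn1 window is chr16:26371840-26372089 on the minus strand and the Cldn5 window chr16:18776597-18776846 on the plus strand. Capitals mark matches, on either strand, to the letters of the E-box (CANNTG), the GC box (GGGCGG), the CCAAT box (CCAAT) and the TATA box (TATAAA), to the AP-1 motif (TGANTCA) or to the NF-kB consensus.
Cldn1: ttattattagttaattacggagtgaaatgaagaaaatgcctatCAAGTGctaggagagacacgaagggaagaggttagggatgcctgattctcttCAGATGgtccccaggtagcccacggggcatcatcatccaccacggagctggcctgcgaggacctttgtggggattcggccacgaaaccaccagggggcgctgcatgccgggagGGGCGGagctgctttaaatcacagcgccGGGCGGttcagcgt
Cldn5: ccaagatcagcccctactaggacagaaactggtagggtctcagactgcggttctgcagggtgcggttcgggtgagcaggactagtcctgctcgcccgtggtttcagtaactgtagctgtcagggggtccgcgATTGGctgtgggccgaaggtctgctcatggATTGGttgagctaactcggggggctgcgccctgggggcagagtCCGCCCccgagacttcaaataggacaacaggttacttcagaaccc
The Cldn1 window held 2 E-boxes, CAAGTG and CAGATG, which begin 207 and 155 bases before the start, and 2 GC boxes, which begin 42 and 14 bases before it. The Cldn5 window held 2 CCAAT boxes on the minus strand, beginning 118 and 88 bases before the start, and 1 GC box on the minus strand at 45. Neither window held the TATA box, AP-1 or NF-kB letters. Among 32841 upstream windows of this length, 66.2% held an E-box, 32.7% a GC box, 33.9% a CCAAT box, 12.4% the TATA box, 6.75% AP-1 and 7.25% NF-kB, so the matches found are common ones. GC content was 55.6% for Cldn1 and 59.6% for Cldn5, against a median of 52.4% over all windows.

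Cldn1 encodes a claudin of epithelial tight junctions, best known from skin, where it is needed for the water barrier. Its log2 value was 6.85 in AP, 7.01 in Cav1-shRNA and 7.99 in cavtratin. In Cav1-shRNA, 8 other probe sets with 1 symbol carried the value of Cldn1, and 0 did in AP or cavtratin. The cavtratin array stood apart, and the AP and Cav1-shRNA arrays lay close to each other. The difference of cavtratin from AP was 1.14 on the log2 scale, a 2.20-fold higher value. In that comparison 11477 genes reached the floor, of which 1.36% were higher and 0.0958% lower by 2-fold or more. Of the 7 members that reached it, 1 was called higher and 0 lower. Ranked by difference, Cldn1 was number 133 of these genes from the top. Among 3359 genes within 0.5 of its mean level, 1.46% had a difference at least as high. Exact ties count as 0 in such shares, here and below, which can make a difference look rarer than it is.

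In the Cav1-shRNA array Cldn1 was 0.16 above AP, or 1.11-fold. Of genes of like level, 7.26% were as high, and 11.4% had a difference at least as large in either direction. Set directly against cavtratin it was 0.98 lower, just short of 2-fold, with 0.982% of genes of like level as low or lower. At 1.5-fold this was the 1 member called lower in that comparison, where 1.53% of 11472 genes were lower and 0.0959% higher by that much. At 2-fold no member was called, against 0.785% of genes lower and 0.0349% higher. The difference between probe sets of a single gene on the same arrays gives a scale for technical and isoform spread: over 232 genes with a pair of probe sets its SD was 0.18 for cavtratin against AP, 0.13 for Cav1-shRNA against AP and 0.17 for Cav1-shRNA against cavtratin. This scale holds no spread between animals or pools, and exact ties can make it narrower. Cldn1 in cavtratin lay far beyond it, and Cldn1 in Cav1-shRNA was of its order.

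**Figure D2:**
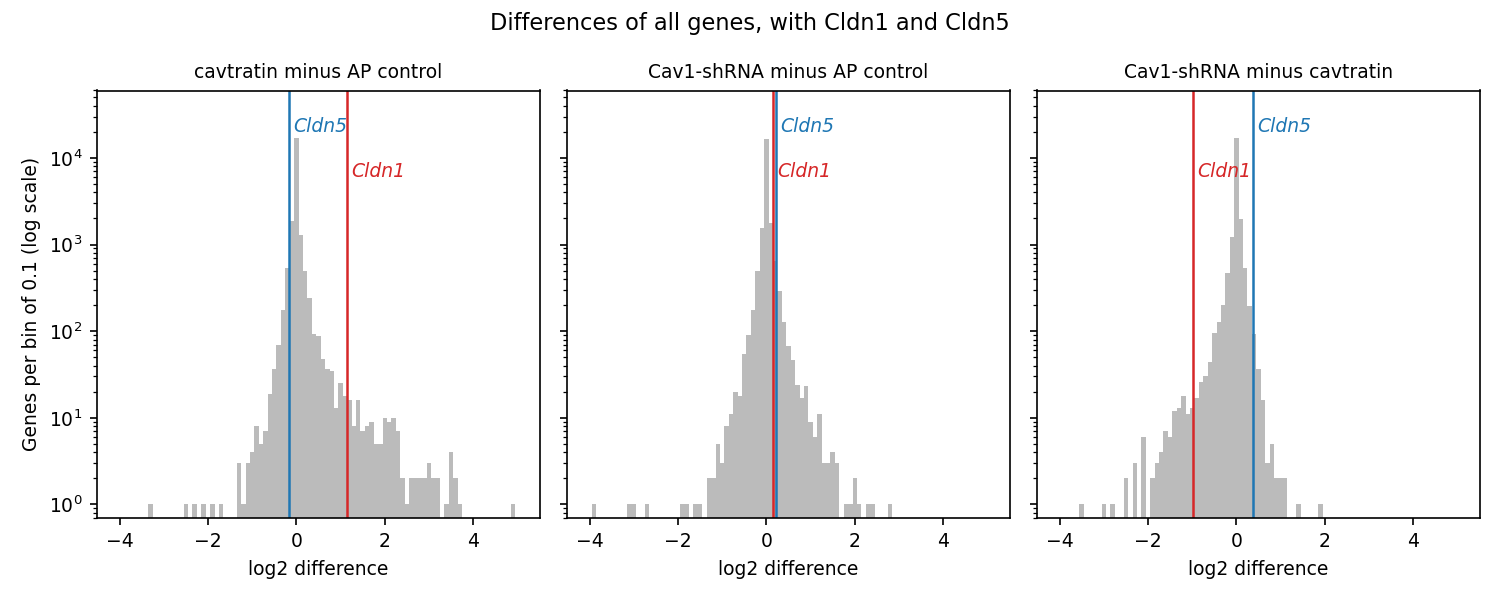
Number of genes per bin of 0.1 (vertical log axis) by log2 difference (horizontal axis) for each pair of arrays, over all 22180 genes, with vertical lines at Cldn1 and Cldn5. Cldn1 lies at 1.14 in the upper tail of cavtratin minus AP and at −0.98 in the lower tail of Cav1-shRNA minus cavtratin, while Cldn5 lies at 0.38 in the latter.

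Cldn5 encodes claudin-5, which seals the endothelial junction against small molecules. Its log2 value was 6.94 in AP, 7.15 in Cav1-shRNA and 6.77 in cavtratin. In Cav1-shRNA, 6 other probe sets with 1 symbol carried the value of Cldn5, and 0 did in AP or cavtratin. Cav1-shRNA was the highest and cavtratin the lowest, with AP between them. The difference from AP was 0.21 in Cav1-shRNA, or 1.16-fold, and −0.17 in cavtratin, or 0.886-fold, and both comparisons share the AP array. The probe set SD was 0.13 and 0.18 for these pairs of arrays, and 8.31% and 10.3% of 3200 genes of like level had differences at least as large in either direction. Cav1-shRNA against cavtratin, the highest array against the lowest, gave 0.38, or 1.31-fold. This value follows from the differences from AP already given and is no separate evidence. That difference ranked number 41 from the top among 11472 genes. Of genes of like level, 3.84% had a difference at least as large in either direction, and 0.656% were as high. It stayed short of 1.5-fold, and so did every difference of a member other than Cldn1. At that threshold 1 member was higher and 0 lower in cavtratin than in AP, beside 2.19% and 0.235% of genes, and 0 were higher or lower in Cav1-shRNA than in AP, beside 0.901% and 0.367%.

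Cldn12 encodes a claudin found in brain endothelium whose barrier role is less settled. Its value was 8.81 on every array. Cldn2 forms a paracellular channel for cations and water in leaky epithelia. It stood at 4.53 in AP and cavtratin and 4.39 in Cav1-shRNA, below the floor on all 3 arrays. The difference of −0.15 therefore lies in a range where the arrays measure little, and Cldn2 counts among no called genes. In AP, 30 other probe sets carried the value of Cldn2.

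Tjp1 encodes ZO-1, the scaffold that binds claudins through its PDZ domains and links them to actin. It was at 9.77 on all 3 arrays, and no other probe set with 1 symbol shared that value. Ocln encodes occludin, a membrane protein of the junction whose phosphorylation is known to accompany retinal leakage. It was at 6.57 on each array, close above the floor. Cgn encodes cingulin, a cytoplasmic protein bound to ZO-1. It was at 6.53 on each array, also close above the floor, a value that 21 to 24 other probe sets shared. These 3 junction genes were level on every pair of arrays, as far as the deposited values resolve.

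Mfsd2a encodes the transporter that marks closed barrier endothelium. It was at 6.87 in AP and cavtratin and at 6.84 in Cav1-shRNA. The difference of −0.03 is small against the probe set spread, was matched or passed in size by 32.1% of genes of like level, and turned to 0.03 when each array was centred on its median. The median of all genes was then 0.058. Plvap encodes the diaphragm protein that appears when barrier vessels turn leaky. It was at 6.01 on all 3 arrays, below the floor, a value shared by 33 to 35 other probe sets on each array. The data therefore show no array with Plvap raised to the floor.

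Over all 9 members the median difference was 0 in each of the 3 comparisons, as was the median of all genes. In cavtratin against AP 1 member was higher, 1 lower and 7 exactly equal, and of the 7 members that reached the floor 5 were equal. Among all genes that reached the floor 19.6% were higher, 25.9% lower and 54.5% equal. In Cav1-shRNA against AP 2 members were higher, 2 lower and 5 equal, and of the 7 that reached the floor 4 were equal. The shares of genes at the floor were 25.2%, 21.9% and 53%. No member was 2-fold apart in that comparison, where 0.341% of 11433 genes were higher and 0.122% lower by that much. Of the 7 members at or above the floor, 4 were equal on all 3 arrays, beside the 43.8% of genes given earlier, and 2 differed on all 3, beside 24.1% of genes. Counts out of 7 this close to the background are no result about the members.

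Of 26 claudin genes listed, 25 were measured and 5 reached the floor in either comparison with AP. On all 3 arrays 17 of the 25 were equal, beside 50.1% of all 22180 genes. Most of these lie where the arrays measure little: 20 claudins had a mean below the floor and 16 of them were equal, beside 56.8% of genes below it. Besides Cldn1 and Cldn5, the claudins at or above the floor with a difference were Cldn11, the claudin of myelin and of testis barriers, at 6.60 in AP and Cav1-shRNA and 6.46 in cavtratin, and Cldn19, a claudin of the pigment epithelium, at 6.52 in AP and Cav1-shRNA and 6.51 in cavtratin. Counted at any level, 1 claudin was higher than AP and 4 were lower in cavtratin, and 4 were higher and 1 lower in Cav1-shRNA. Among genes that reached the floor 19.6% were higher and 25.9% lower in cavtratin, and 25.2% and 21.9% in Cav1-shRNA. The claudin counts take in genes below the floor, Cldn34b1 in cavtratin and Cldn2, Cldn4 and Cldn14 in Cav1-shRNA. They are no result about the family. Cldn1 was the 1 claudin at least 2-fold apart in either comparison with AP. Its neighbours on chromosome 16 in the RefSeq order, the claudin Cldn16 and the collagen-modifying enzyme gene P3h2, were each equal on all 3 arrays, at 5.15 and 7.65.

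Scaffolds and partners of the junction came next. Of 29 measured genes, 26 reached the floor and 17 were equal on all 3 arrays, beside 50.1% of all genes. In any comparison 0 were 1.5-fold apart. At that threshold no more than 2.19% of genes were higher and 1.53% lower in any comparison. A count of 0 in a list of this size is therefore no result about its genes, here and in the lists below. Cdh5, the adhesion protein VE-cadherin of endothelial junctions, was at 7.72 in AP, 7.99 in cavtratin and 8.24 in Cav1-shRNA. F11r, the junctional adhesion molecule JAM-A, was at 7.01 in AP, 7.21 in cavtratin and 7.31 in Cav1-shRNA. For both genes AP was lowest and Cav1-shRNA highest. Arhgef2, a RhoA activator held at junctions by cingulin, was 0.28 above AP in cavtratin and 0.13 above it in Cav1-shRNA. Pard6a, a cell polarity protein, was at 6.93 in AP, 6.91 in Cav1-shRNA and 6.58 in cavtratin, the lowest difference of the list. Sympk, which encodes symplekin, an mRNA processing factor also found at junctions, was 0.12 below AP in both arrays.

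Barrier transporters, Mfsd2a among them, also lay within 1.5-fold throughout. Of 24 measured, 18 reached the floor and 9 were equal on all 3 arrays, beside 50.1% of all genes. Above AP were 7 in cavtratin and 10 in Cav1-shRNA, and below it 4 in each, with a median of 0 in both. Among genes that reached the floor, 19.6% and 25.2% were above AP and 25.9% and 21.9% below it. The transporter counts also take in genes below the floor. Slc2a1, the glucose transporter GLUT1 of barrier cells, was at 11.27 in AP, 11.38 in Cav1-shRNA and 11.45 in cavtratin. Slc7a5, a carrier of large neutral amino acids, was at 9.54, 9.68 and 9.60 in the same order. Abcb1a, the efflux pump P-glycoprotein, was at 7.01 in AP and cavtratin and 7.15 in Cav1-shRNA. Lrp1, an endocytic receptor, was 0.26 above AP in cavtratin and 0.09 above it in Cav1-shRNA. Tfrc, the transferrin receptor, was 0.14 and 0.075 below, and the zinc importer Slc39a10 was 0.06 above AP in cavtratin alone.

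Norrin and Wnt ligands switch on claudin-5 and Mfsd2a and hold Plvap down in retinal vessels. Of 21 measured genes of that pathway, 13 reached the floor and 0 were 1.5-fold apart. On all 3 arrays 12 were equal, beside 50.1% of all genes. The receptor Fzd4 was level at 8.34. Ndp, which encodes norrin, was at 8.004 in AP, 8.20 in cavtratin and 7.91 in Cav1-shRNA, a difference from AP of 0.19 in cavtratin and −0.10 in Cav1-shRNA, about the size of the probe set spread. The relation of these values to Cldn5 was not tested. Lrp5, the co-receptor, was at 6.89 in AP, 7.08 in cavtratin and 7.10 in Cav1-shRNA. Tspan12, which enhances norrin signalling, Sox17, an endothelial transcription factor, Nkd1, a Wnt feedback gene, and Adgra2, a Wnt7 co-receptor, differed from AP by at most 0.03 in size.

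Of 18 genes of vesicle transport and leakage, all measured, 11 reached the floor and 0 at or above the floor were 1.5-fold apart. On all 3 arrays 8 were equal, beside 50.1% of all genes. Kdr, the main VEGF receptor of endothelium, was at 9.63 in AP and 9.87 in both other arrays, and the VEGF receptor Flt1 at 8.35 and 8.41. Vegfa, the leakage factor, was at 9.41 in AP and Cav1-shRNA and 9.51 in cavtratin. Cavin3, a caveolar coat protein, Tek, the angiopoietin receptor, and Nos3, the endothelial nitric oxide synthase, differed by at most 0.05. Aplnr, the apelin receptor of sprouting vessels, was named after its values were seen: it was below the floor at 5.52 in AP, 5.75 in cavtratin and 6.30 in Cav1-shRNA.

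**Figure D3:**
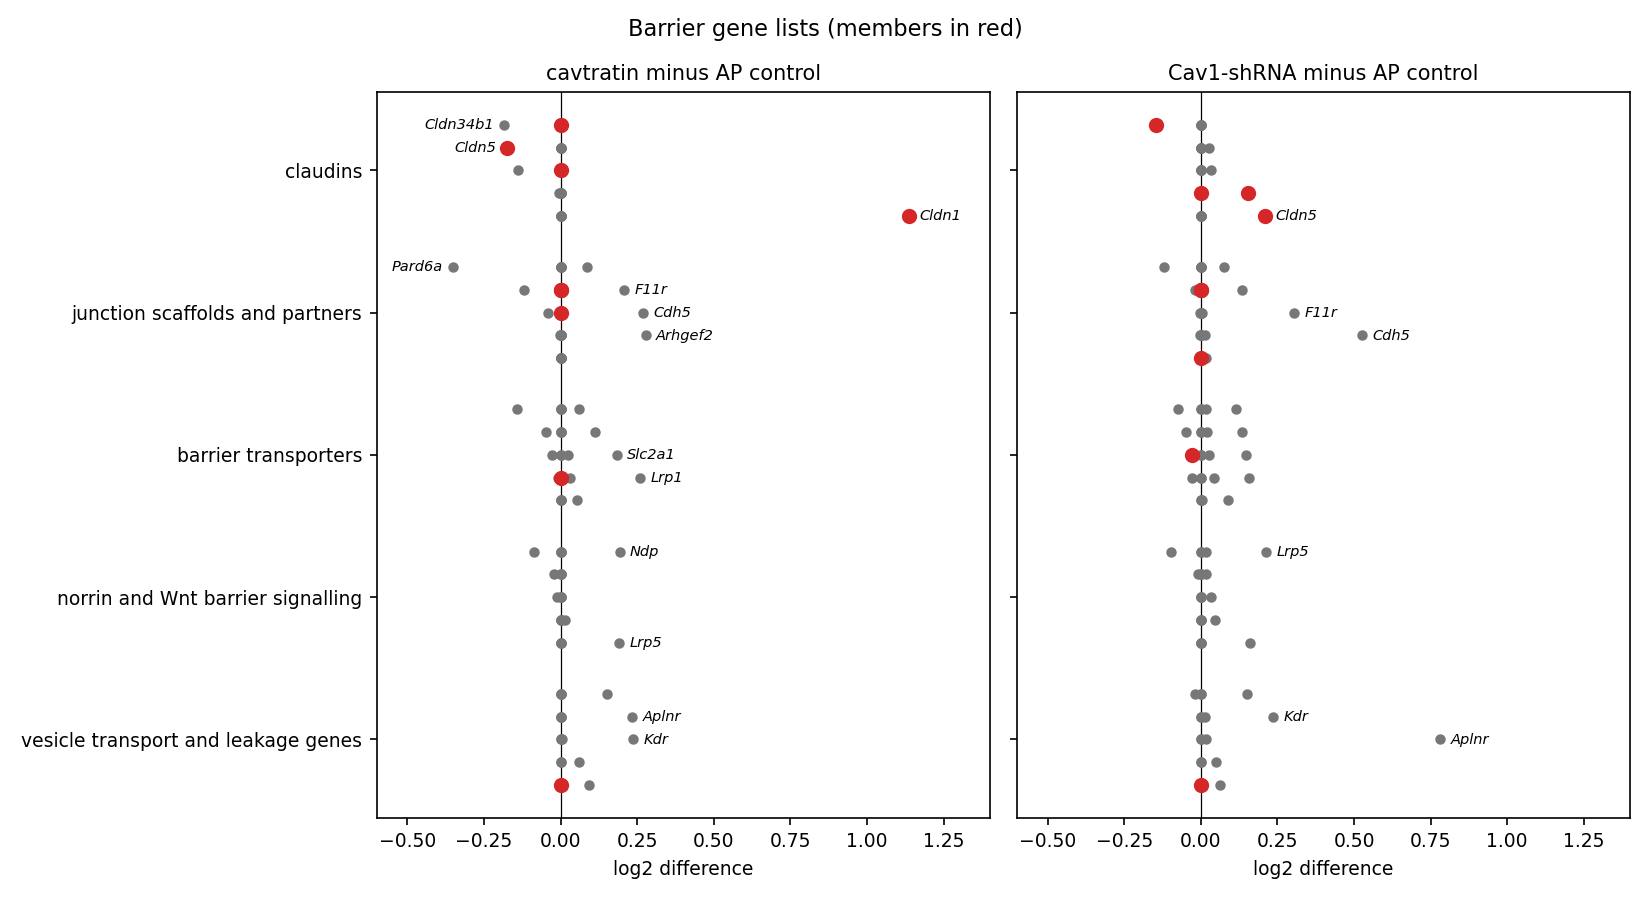
Log2 difference from AP control (horizontal axis) of every measured gene of 5 barrier lists, for cavtratin (left) and Cav1-shRNA (right), 1 point per gene, members in red; vertical spread within a list only separates points. Cldn1 at 1.14 in cavtratin stands alone, Pard6a at −0.35 is lowest, and in Cav1-shRNA the farthest points are Aplnr at 0.78 and Cdh5 at 0.53.

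Whole retina holds many cell types, and in pooled tissue RNA fewer cells of a type cannot be told apart from less RNA per cell. Endothelial markers were set beside Cldn5. Of 17, 7 were above AP and 3 below in cavtratin, and 10 above and 1 below in Cav1-shRNA. Their mean value was 6.98 in AP, 7.05 in cavtratin and 7.10 in Cav1-shRNA. Beside this list and those below, 19.6% of genes that reached the floor were above AP and 25.9% below in cavtratin. In Cav1-shRNA these shares were 25.2% and 21.9%. The marker counts, here and below, also take in genes under the floor. The 3 endothelial markers below AP in cavtratin were Ly6c1 at −0.30, under the floor on every array, Podxl at −0.06 and Sox17 at −0.02. A further 7 were equal to AP. In cavtratin Emcn, endomucin, was 0.43 above AP, Pecam1, the adhesion protein CD31, 0.38 and Cdh5 0.27, while Cldn5 was 0.17 below. In Cav1-shRNA all 4 were above AP, with Cdh5 at 0.53, Emcn at 0.43, Pecam1 at 0.35 and Cldn5 at 0.21. Esam and Egfl7, also endothelial, were equal on all 3 arrays. Of 12 pericyte and smooth muscle markers, 4 were above and 4 below AP in cavtratin and 10 above and 0 below in Cav1-shRNA, led in both by Anpep, an aminopeptidase, at 0.61. The part of endothelial or mural cell content in the Cldn5 values was not tested.

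Epithelial and immune markers were set beside Cldn1. Pigment epithelium markers had 8 of 13 above AP and 2 below in cavtratin, with a median difference of 0.10, and a mean value of 6.997 in AP, 7.11 in cavtratin and 6.97 in Cav1-shRNA. Dct, a melanin enzyme, was 0.41 above AP in cavtratin, Mlana, a melanosome protein, 0.27 and Rgr, an opsin of the pigment epithelium, 0.21, whereas Rpe65, its visual cycle isomerase, was equal in AP and cavtratin at 7.63. Cornea and surface epithelium markers had 2 of 6 above AP and 1 below in cavtratin, and 3 above and 0 below in Cav1-shRNA. Their mean value was 6.02 in AP, 6.04 in cavtratin and 6.17 in Cav1-shRNA. Krt12, below the floor throughout, was at 5.41 in AP and cavtratin and 6.01 in Cav1-shRNA. In cavtratin Krt18 and Krt8, keratins of simple epithelium, were 0.16 and 0.09 above AP. The epithelial adhesion genes Epcam and Cdh1 were equal on all 3 arrays, both below the floor. Larger differences lay in other markers. The mean value in AP and cavtratin was 6.54 and 7.88 for 10 neutrophil and monocyte markers, 9 of them higher in cavtratin. It was 6.86 and 8.07 for 11 lens markers, 9 higher, and 7.35 and 7.96 for 12 microglia and macrophage markers, 9 higher. In Cav1-shRNA the list means were 7.12, 6.80 and 7.89 in that order. At least 2-fold higher in cavtratin than in AP were 6, 5 and 4 markers, so a mean does not stand for its whole list. In the neutrophil and monocyte list S100a8 was 3.74 above AP in cavtratin, while Ly6c2 was 0.43 below it. In Cav1-shRNA Ly6c2 was 1.49 above AP, the largest difference of that list. In the lens list Cryba1 was 3.08 and Cryaa 2.83 above AP in cavtratin, while Lim2 was equal and Mip 0.06 lower. In the microglia and macrophage list Fcer1g was 1.85 above, Aif1 and P2ry12 were equal, and the median difference was 0.18. The part of any of these cell types in the Cldn1 value was not tested.

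**Figure D4:**
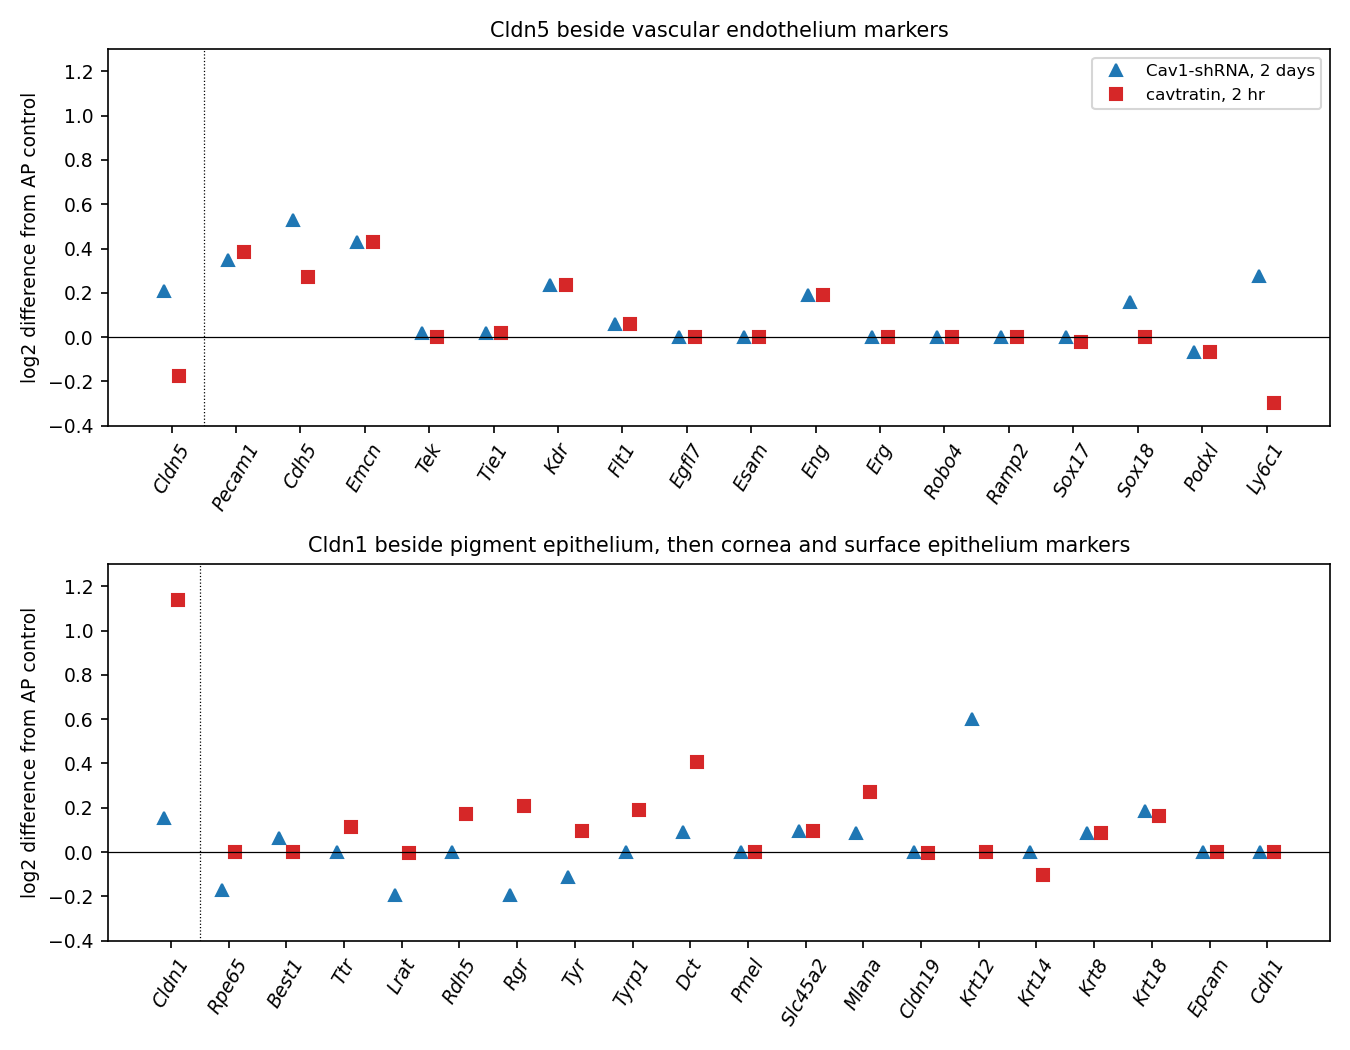
Log2 difference from AP control (vertical axis) for Cav1-shRNA and cavtratin, 1 point per array, of Cldn5 beside all 17 endothelial markers (top) and of Cldn1 beside all 13 pigment epithelium and 6 cornea and surface epithelium markers (bottom). In cavtratin Cldn5 is at −0.17, and the endothelial markers run from Ly6c1 at −0.30, below the floor, to Emcn at 0.43. Cldn1 at 1.14 in cavtratin lies above every epithelial marker shown. The highest of these is Dct at 0.41 in cavtratin and Krt12 at 0.60 in Cav1-shRNA.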

How the data were processed

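The deposited values, 1 per probe set and array, were used as given by the authors and read as log2 expression from their range. For the log base, normalization and summarisation, the method is not given in the sources used here. Per the labels, biotin-labelled cDNA was made from TRIZOL-extracted total RNA checked on a Bioanalyzer. Of 41345 probe sets, 23521 had 1 gene symbol in the platform annotation, which can be old, 1814 had several and 16010 were not listed. The highest-mean probe set stood for a gene. For all 9 members the Entrez identifier matched the same symbol in RefSeq GRCm38.p6.

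A difference is a subtraction of log2 values. A gene was called at 2-fold (or 1.5-fold) when the higher of the compared arrays was at or above the floor of 6.50. Values within 1e-09 counted as equal. Precision is limited by the number of arrays, 3. No test between groups was run. The code for the call rule was run on simulated arrays with independent noise and no exact ties. That checks the code alone and is no support for the calls made here. All 9 members were named, and of each barrier gene list up to 4 genes with the largest difference at or above the floor per comparison. Cell type markers followed no such rule, and those named were picked with their values known. Muller glia markers were measured too and are not described here. Fzd4, Esam, Egfl7, Epcam, Cdh1, Rpe65 and the genes beside Cldn1 were named as well, after their values were seen. So were Krt12, Lim2, Mip, Aif1, P2ry12, S100a8, Ly6c2, Ly6c1, Podxl, Cldn4, Cldn14 and Cldn34b1. The members and lists were chosen with earlier results of these data known. Alternatives were centring, quantile normalization, a loess trend (span 0.3), other probe set rules, floors and folds. Python 3.11.15, pandas 2.3.3 and statsmodels 0.14.6 were used. A comparison of protein sequences was planned and is not analysed here.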

Additional observations from a re-analysis of the deposited data

How the results depend on the processing

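No paired analysis was possible because each group has 1 array and the groups share only the replicate number 1. Under centring, quantile normalization, loess and the other probe set rules, 0 of 135 recomputed member differences moved by more than the probe set SD, the largest move being 0.058, which centring adds to every difference of Cav1-shRNA from AP. Cldn1 stayed the 1 member called at 2-fold in cavtratin, at 1.13 to 1.14, and 0 were called in the other comparisons. Mfsd2a in Cav1-shRNA changed sign against AP, from −0.03 to 0.03 with centring and 0.01 with quantile normalization. Centring put the median of all genes in that comparison at 0.058, so Mfsd2a stayed below it. Each member has 1 probe set, so the other probe set rules gave the same values. The counts over all genes moved with the threshold: at 3-fold 86 genes were higher and 5 lower in cavtratin than in AP (156 and 11 at 2-fold), 9 and 6 in Cav1-shRNA than in AP (39 and 14), and 1 and 26 in Cav1-shRNA than in cavtratin (4 and 90). With the floor raised by 1, 8 genes were lower in Cav1-shRNA than in AP in place of 14. Fewer genes pass a stricter rule by its construction. Cldn1 does not pass at 3-fold. Values near or below the floor, as for Ocln, Cgn, Plvap and Cldn2, leave small differences unresolved.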
